A study of Mus musculus with 179 samples.

Results

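Penk, Adora2a and Gpr6, which mark the striatal neurons of the indirect pathway, and Pdyn, Tac1 and Chrm4, which mark those of the direct pathway, were followed across the reward regions of stressed and unstressed mice. The 6 genes were chosen by name as textbook markers of the 2 pathways, not by a measured value, and were read from tables of 16239 genes for the male nucleus accumbens (NAc), 37991 genes for the male ventral tegmental area (VTA) and 32421 genes for every other library. All 6 were found in the latter tables. In the male NAc table Penk, Adora2a, Gpr6 and Chrm4 were found, and Pdyn and Tac1 were not analysed here.

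Nearly all neurons of the NAc, the ventral part of the striatum, are medium spiny neurons (MSNs), which release GABA and fall into 2 classes. Classically, indirect-pathway MSNs carry the dopamine receptor Drd2 and make enkephalin, whereas direct-pathway MSNs carry Drd1 and make dynorphin and substance P. Penk encodes the enkephalin precursor, Pdyn the dynorphin precursor and Tac1 the precursor of substance P and neurokinin A. Adora2a encodes an adenosine receptor that raises cyclic AMP, Gpr6 an orphan receptor that also raises cyclic AMP, and Chrm4 the muscarinic M4 receptor, which lowers it.

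Poly-A RNA was sequenced from 163 tissue samples of adult mice, taken 24 h after behavioural testing, from NAc, VTA and prefrontal cortex (PFC) of both sexes and from male hippocampus (HIP). Pups were reared under standard conditions (Std) or exposed to early life stress (ELS), and as adults males were left undefeated or went through social defeat, and females were left unstressed or went through sub-threshold variable stress (STVS). The question was how ELS, adult stress and their combination altered expression.

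The male NAc groups were Std (4 libraries), Std with defeat (6), ELS on postnatal days 10 to 20 (4) and with defeat (6), and ELS on postnatal days 2 to 12 (4) and with defeat (5). These windows are written P10-20 and P2-12 here. Each female region had Std (6), Std with STVS (5), ELS (5) and ELS with STVS (6), with ELS on days 10 to 20. Male PFC and HIP had 6 libraries in each of Std, Std with defeat, ELS and ELS with defeat, again with days 10 to 20. Male VTA had 4 Std, 6 Std with defeat, 4 ELS and 6 ELS with defeat libraries, and the labels give no ELS window for it. Mice were C57BL/6 (male VTA) or C57Bl6/j (all others). Male NAc and male VTA libraries pooled punches of 3 mice, and no pool size was recorded here for the others. Males and females were separate cohorts, so sex and cohort cannot be told apart and the sexes were not compared. No genetic marker or sort separated the MSN classes. In bulk tissue, fewer cells of a type and less RNA per cell cannot be told apart.

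Depth was 13.6 to 23.9 M reads in male NAc and 19.2 to 42.7 M reads in the other sets of region and sex. The summed level of a list of 12 genes that both MSN classes share had a median of 269345 normalised reads in female NAc, 30409 in female PFC and 25097 in female VTA, highest in the tissue labelled as striatal. By Xist, Ddx3y and Ttr, 14 libraries stood apart from their labels or their region, among them replicate 3 of Std with STVS (Xist 100.9 normalised reads) and replicate 1 of ELS with STVS (Ttr 40770) in female NAc. In 10 other female NAc libraries the adult-condition label repeats the sex, and the title gave the group. Male VTA libraries were not screened in this way. Contrasts and correlations were also run without the 14 libraries, and no marker's call in a contrast changed. The male HIP libraries among the 14 entered no contrast or correlation. The protocol text speaks of male mice alone, while titles and characteristics give both sexes, and the titles were followed. Xist was low in 3 libraries titled female, each of them replicate 3 of Std with STVS in its region. Ddx3y in them was also low, at 1.9 (NAc), 0.0 (PFC) and 5.3 (VTA) normalised reads. It was 1705 in male PFC Std replicate 1. The cause of the low Xist was not tested.

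The promoters of 4 of the 6 genes could be read from RefSeq (GRCm38.p6), and Penk and Adora2a were not among them. The 4 promoters are shown because 2 of them hold the cyclic AMP response element or its shorter form. A link between these elements and the levels across libraries was not tested. Each is the 250 bases before the gene's start, 5′ to 3′ on the gene's strand, with capitals marking the full element TGACGTCA or, where that is absent, the short form TGACG read on either strand (CGTCA on the other). Gpr6 is at chr10:41072291-41072540 (minus strand), Tac1 at chr6:7554811-7555060 (plus), Pdyn at chr2:129699939-129700188 (minus) and Chrm4 at chr2:91921939-91922188 (plus).
Gpr6: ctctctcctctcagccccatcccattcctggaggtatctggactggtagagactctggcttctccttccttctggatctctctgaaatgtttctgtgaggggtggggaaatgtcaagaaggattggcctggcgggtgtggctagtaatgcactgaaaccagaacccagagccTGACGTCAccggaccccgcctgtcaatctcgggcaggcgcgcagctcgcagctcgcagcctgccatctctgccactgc
Tac1: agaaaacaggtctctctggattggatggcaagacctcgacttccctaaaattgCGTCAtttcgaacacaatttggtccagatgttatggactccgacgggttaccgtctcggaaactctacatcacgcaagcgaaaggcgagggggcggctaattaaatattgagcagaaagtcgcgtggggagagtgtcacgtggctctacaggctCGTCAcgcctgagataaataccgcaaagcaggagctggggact
Pdyn: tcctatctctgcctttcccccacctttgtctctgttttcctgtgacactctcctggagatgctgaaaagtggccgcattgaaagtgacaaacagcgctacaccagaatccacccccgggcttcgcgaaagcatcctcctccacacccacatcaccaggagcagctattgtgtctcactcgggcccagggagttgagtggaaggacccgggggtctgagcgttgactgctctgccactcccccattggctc
Chrm4: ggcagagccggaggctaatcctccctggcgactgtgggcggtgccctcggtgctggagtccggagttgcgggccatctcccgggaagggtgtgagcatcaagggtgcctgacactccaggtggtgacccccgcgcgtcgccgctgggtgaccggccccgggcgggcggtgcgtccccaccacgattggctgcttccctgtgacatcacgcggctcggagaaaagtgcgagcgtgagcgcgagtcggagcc
The full element begins at position -78 from the start of Gpr6, and 1.55% of 32851 windows of this length hold it on either strand. Its letters contain the short form once on each strand, overlapping. Tac1 has the short form at -197 and -43, a form that 17.8% of windows hold. Neither occurs in the windows of Pdyn and Chrm4. Pdyn has another listed start, whose window (chr2:129698659-129698908, minus strand) is not printed and also holds neither. These are matches of letters, and binding was not analysed here.

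Within NAc, levels were compared between genes per kilobase of merged exon. In female NAc the order of medians over 22 libraries was Penk (22428 normalised reads per kb), Tac1 (7329), Pdyn (3494), Adora2a (3122), Gpr6 (1589) and Chrm4 (580.0). In male NAc over 29 libraries it was Penk (31726), Adora2a (4534), Gpr6 (2117) and Chrm4 (1224). Penk, a peptide precursor, led in both, and the 3 receptors came last with Chrm4 lowest. Among neighbours in these orders, only the ranges of Pdyn and Adora2a overlapped.

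The markers separated NAc sharply from PFC and VTA. In the 6 unstressed standard-reared females per region, Penk was 32330 to 41900 normalised reads in NAc (median 36441), 489.0 to 691.6 in PFC (541.1) and 1075 to 1950 in VTA (1554). Adora2a was 6007 to 10284 in NAc (8345), 63.25 to 93.41 in PFC (77.72) and 52.85 to 94.58 in VTA (68.62). Gpr6 was 2087 to 3731 in NAc (3118), 22.80 to 34.86 in PFC (29.19) and 42.54 to 78.83 in VTA (56.53). For each indirect-pathway marker every NAc library lay far above every PFC and VTA library, and for Adora2a the PFC and VTA ranges overlapped.

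Among the direct-pathway markers, Pdyn was 8646 to 11113 normalised reads in NAc (median 10053), 687.3 to 848.7 in PFC (766.1) and 62.50 to 137.8 in VTA (93.32). Tac1 was 4810 to 9926 in NAc (8756), 466.2 to 570.8 in PFC (517.3) and 100.1 to 517.7 in VTA (211.4). Chrm4 was 1280 to 1889 in NAc (1757), 702.2 to 1001 in PFC (805.1) and 40.80 to 94.58 in VTA (58.33). NAc was again the highest region in every library. Tac1 overlapped between PFC and VTA, and PFC held an intermediate level of Pdyn and Chrm4, without overlap on either side.

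**Figure D1:**
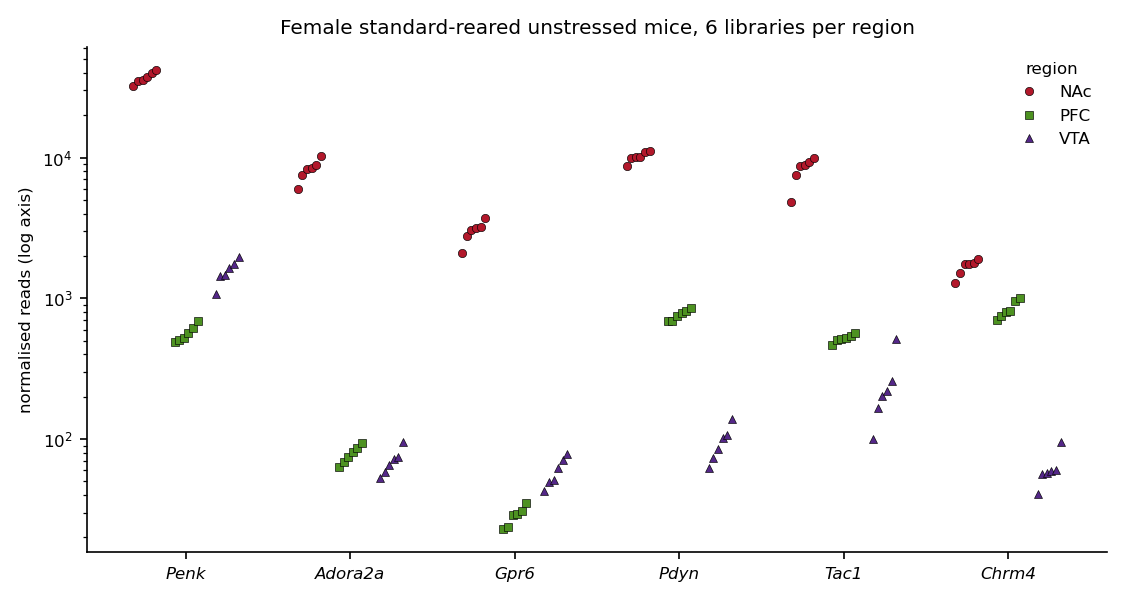
Normalised reads (log axis) of the 6 genes in unstressed standard-reared females, 1 point per library and 6 libraries per region (NAc circles, PFC squares, VTA triangles). Chrm4 in PFC, at 702.2 to 1001, comes closest to its NAc level of 1280 to 1889.

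By limma with Benjamini-Hochberg adjustment over 14000 genes, 6 of 6 markers were higher in NAc than in PFC, where 35.7% of all genes were higher and 34.7% lower. The log2 difference was 6.70 ± 0.14 (SE) for Adora2a, 104-fold and the 14th largest of 14000, with Gpr6 next at 6.67 ± 0.15 (102-fold). Penk differed by 6.04 ± 0.12 (65.9-fold), Tac1 by 3.94 ± 0.28 (15.4-fold) and Pdyn by 3.73 ± 0.14 (13.3-fold). Chrm4 differed by 0.99 ± 0.15, which is 1.99-fold (adjusted p = 6.9e-06) and 855th in rank. The 3 indirect-pathway markers thus had larger NAc-to-PFC differences than the 3 direct-pathway markers, a comparison of values that was not itself tested.

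Against VTA, 6 of 6 markers were again higher in NAc, beside 38.6% of all genes higher and 42.5% lower. Here the classes did not separate: Adora2a was 117-fold higher, Pdyn 109-fold, Gpr6 50.5-fold, Tac1 36.9-fold, Chrm4 27.3-fold and Penk 24.1-fold. PFC against VTA called 5 of 6, beside 38.8% of genes higher and 40.0% lower. The 3 direct-pathway markers were higher in PFC (Chrm4 13.7-fold, Pdyn 8.22-fold, Tac1 2.41-fold), Penk and Gpr6 were lower (log2 difference -1.45 and -1.01), and Adora2a differed by 0.17 (adjusted p = 0.26). Without replicate 3 of the VTA group, the 1 library of these 18 that stood apart, Adora2a gave 0.26 (adjusted p = 0.0659). With quantile normalisation Adora2a differed by 0.30 and passed (adjusted p = 0.0365). The mean log2 level of the direct genes minus that of the indirect genes was also taken, not scaled by gene length. It was -0.94 ± 0.12 (SD) over 22 female NAc libraries, 2.57 ± 0.26 in 22 female PFC and -0.64 ± 0.31 in 22 female VTA libraries. The pathway names apply to striatal neurons, so in PFC and VTA this value describes only the levels of these genes.

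Other genes of the same circuits were set beside them. The shared MSN list, which includes Ppp1r1b (DARPP-32) and Rgs9, was higher in NAc for 12 of 12 genes against either region (median log2 difference 3.49 from PFC and 4.21 from VTA). Of 6 further direct-pathway genes, 4 were higher and 1 lower in NAc than in PFC, beside the 35.7% of all genes higher and 34.7% lower there, led by the transcription factor gene Isl1 (8.90), Slc35d3 (6.53) and the dopamine receptor gene Drd1 (3.77). Of 6 further indirect-pathway genes tested, 4 were higher and 2 lower beside the same shares, led by the dopamine receptor gene Drd2 (6.78 ± 0.24).

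Opioid and tachykinin receptor genes were not all higher in NAc. Against PFC, 4 of 6 were, beside 35.7% of all genes, namely the tachykinin receptor genes Tacr3 (log2 difference 4.43) and Tacr1 (3.29), the kappa opioid receptor gene Oprk1 (2.70) and the mu opioid receptor gene Oprm1 (2.43). The delta opioid receptor gene Oprd1 (-0.57) was lower, as was Oprl1 (-0.35), the receptor gene for nociceptin, which comes from another precursor. Of 6 genes that process peptide precursors, 5 were lower in NAc than in PFC, beside 34.7% of all genes, with the convertase genes Pcsk1 at -1.93 and Pcsk2 at -0.92.

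Stress was tested in 36 contrasts over 6 region and sex sets, 16 of them in NAc. No gene at all passed an adjusted p of 0.05 in any of these contrasts, by limma or by edgeR's quasi-likelihood test, so 0.0% of genes were called. At an unadjusted p under 0.05, limma counted 187 to 2337 genes per contrast, which is 1.34% to 16.7% of those tested, and edgeR 193 to 2401. In the paragraphs below, the limma share of each contrast stands beside its marker count. The 6 markers gave 189 pairs of gene and contrast, of which 0 were called, 21 had an unadjusted p under 0.05 by limma (lowest adjusted p = 0.353) and 26 by edgeR. P-values measure the spread between these tissue samples. In male NAc the differences ran from -0.41 to 0.27 on the log2 scale with a median 95% interval half-width of 0.23, and in female NAc from -0.44 to 0.13 with a half-width of 0.28.

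In male NAc the lowest levels were in defeated mice that had had ELS on days 2 to 12. Penk in the undefeated P2-12 libraries 1 to 4 was 62332, 52038, 44946 and 59683 normalised reads, and in the defeated P2-12 libraries 1 to 5 it was 36299, 50249, 43694, 47461 and 50650. Each defeated library lay below the undefeated mean, while the ranges overlapped. The mean was 54750 ± 7859 (SD, n = 4) without defeat and 45671 ± 5931 (SD, n = 5) with it. The difference was -0.26 ± 0.10 (SE, log2; limma adjusted p = 0.583) and was not called.

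Adora2a, the adenosine receptor gene, was 14531, 11173, 11490 and 13357 normalised reads in undefeated P2-12 libraries and 7694, 11257, 8839, 10808 and 11829 in defeated ones. Replicates 1 and 3 of the defeated group were lowest, and the groups overlapped. The difference was -0.34 ± 0.13 (log2; limma adjusted p = 0.57). Gpr6 was 4276, 3748, 3463 and 4134 without defeat and 2777, 3545, 2559, 3262 and 3894 with it. Its difference was -0.30 ± 0.11 (limma adjusted p = 0.57), again with overlap.

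Chrm4, the direct-pathway gene in the male table, was 3796, 3283, 3423 and 3859 without defeat and 2354, 3166, 2977, 3390 and 3479 with it. It differed by -0.23 ± 0.11 (log2; limma adjusted p = 0.639), and without replicate 1 of the defeated group by -0.14 (adjusted p = 0.82). Thus 4 of 4 markers measured had an unadjusted p under 0.05 in this contrast, beside 7.71% of all genes by limma. The genes also varied together across libraries, so they are not 4 independent signs. The shared MSN list had the same sign, with 7 of 7 fold changes below 0 and a median of -0.23 against 0.00 over all genes tested. Its mean log2 level was 14.56 ± 0.11 (SD, n = 4) in undefeated and 14.34 ± 0.23 (n = 5) in defeated P2-12 libraries. With that level as a covariate the differences were -0.12 for Penk, -0.12 for Adora2a, -0.13 for Gpr6 and -0.04 for Chrm4 (adjusted p from 0.673 to 0.896 by limma). Summed cortical glutamate neuron genes, 4 of 6 measured, ran from 91.52 to 662.1 normalised reads without defeat and from 347.9 to 2099 with it, with replicates 1 and 3 highest. Their part in the result was not tested.

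**Figure D2:**
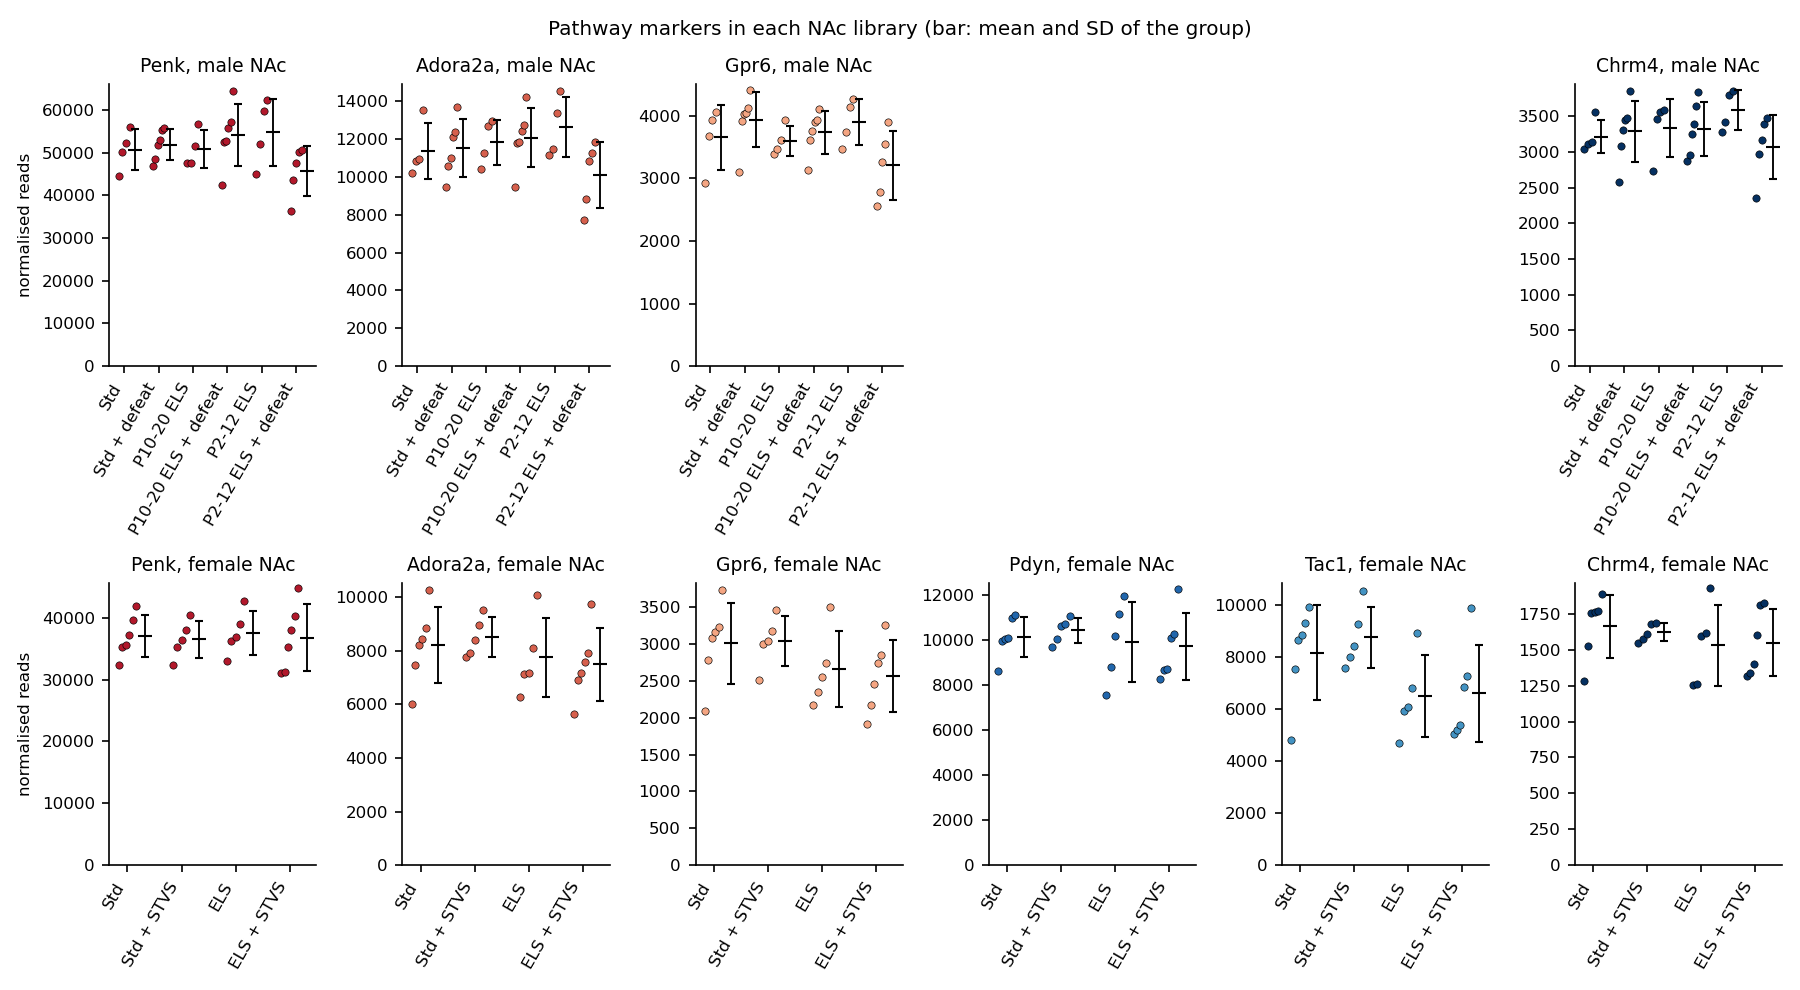
Normalised reads of each gene in each NAc library by group, males above and females below, with the mean and SD of the group as bars. In males the defeated P2-12 ELS group has the lowest means (Penk 45671), and in females Tac1 has lower means in both ELS groups (6502 and 6617) than in the Std groups (8184 and 8780).

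After the other rearing conditions defeat left smaller differences. After standard rearing they were 0.03 (Penk), 0.02 (Adora2a), 0.11 (Gpr6) and 0.03 (Chrm4) on the log2 scale, 0 of 4 at an unadjusted p under 0.05, beside 3.39% of genes. After P10-20 ELS they were 0.08, 0.02, 0.05 and -0.01, again 0 of 4, beside 8.41%. The test of the difference in defeat response between P2-12 and standard rearing gave -0.41 ± 0.15 for Gpr6 (limma adjusted p = 0.788), -0.35 ± 0.18 for Adora2a (adjusted p = 0.796), -0.29 ± 0.14 for Penk (adjusted p = 0.796) and -0.26 ± 0.15 for Chrm4 (adjusted p = 0.83). Gpr6 was the 1 of 4 with an unadjusted p under 0.05, beside 6.03% of genes. The same test for P10-20 gave -0.06 to 0.05, 0 of 4 beside 3.93%. A larger response after P2-12 ELS was therefore not established.

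ELS alone differed little from standard rearing in male NAc. P2-12 ELS gave 0.10 to 0.16 for the 4 genes and P10-20 ELS gave -0.01 to 0.06, in each case 0 of 4, beside 3.46% and 6.77% of genes. Among defeated males, P2-12 history gave -0.30 ± 0.10 for Gpr6 (limma adjusted p = 0.752) and -0.19 ± 0.09 for Penk (adjusted p = 0.835), with 1 of 4, Gpr6, at an unadjusted p under 0.05, beside 6.01%. These contrasts share the defeated P2-12 libraries with the defeat contrast above. Set against the P10-20 window, defeated P2-12 libraries had lower means, with P10-20 minus P2-12 at 0.27 ± 0.11 for Adora2a, 0.25 ± 0.09 for Penk, 0.23 ± 0.10 for Gpr6 and 0.12 ± 0.10 for Chrm4. The first 3 of these 4 had an unadjusted p under 0.05, beside 7.61% of genes, and the lowest adjusted p was 0.609 by limma. P10-20 history among defeated males gave -0.07 to 0.07 (0 of 4, beside 4.62%), and the windows compared in undefeated males gave -0.11 to -0.09 (0 of 4, beside 7.64%).

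**Figure D3:**
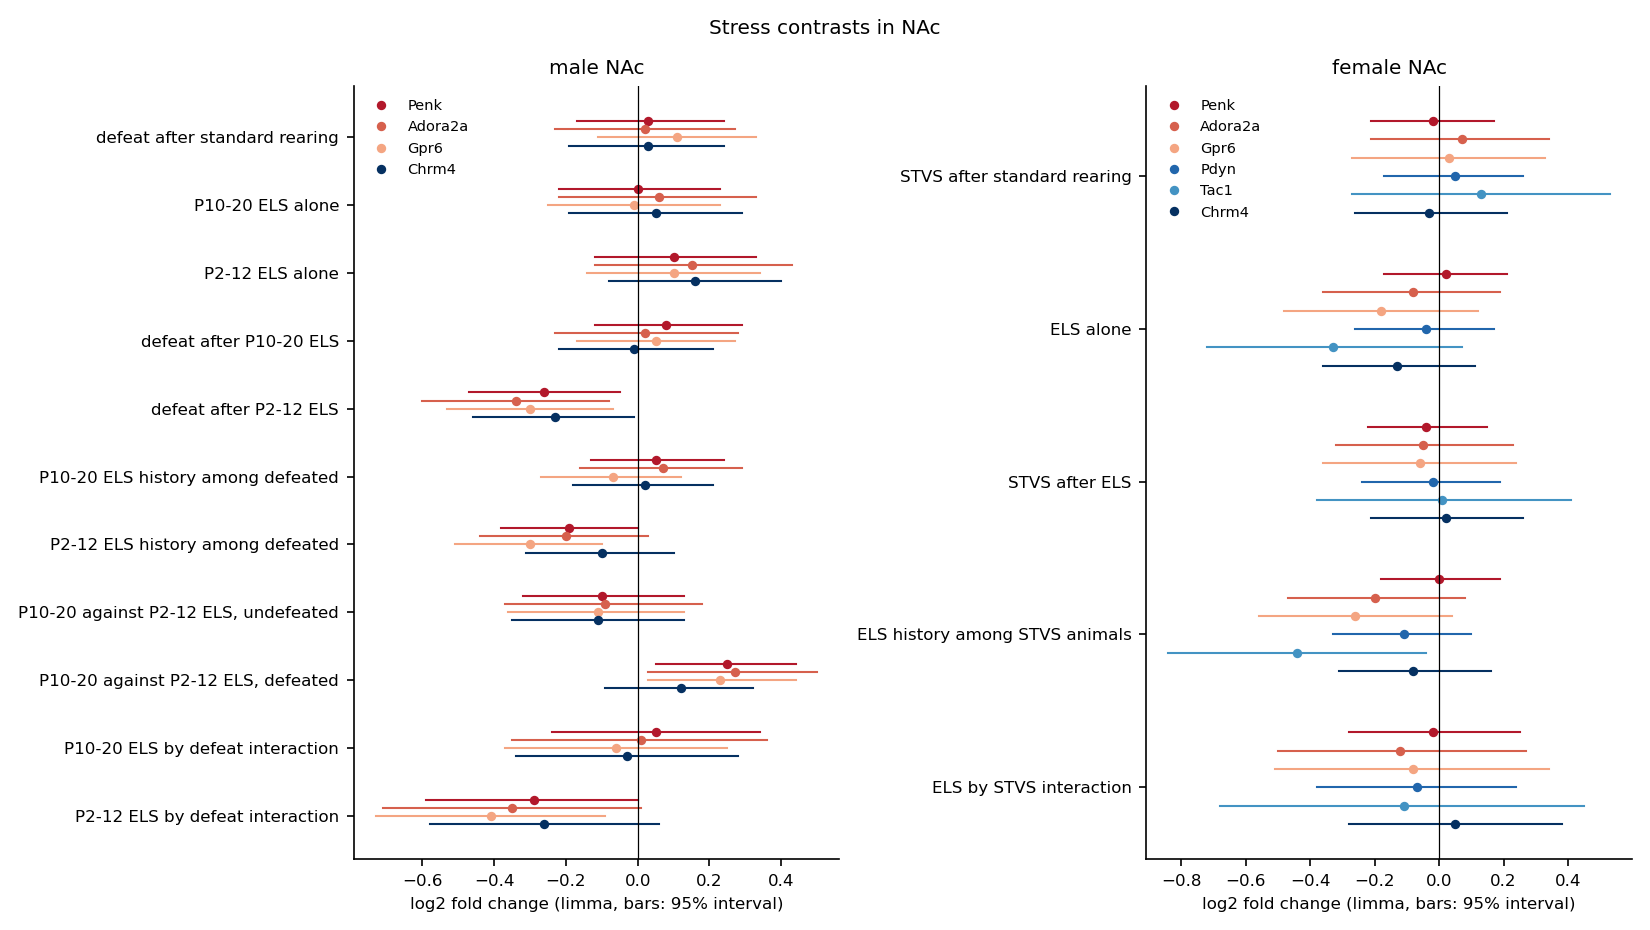
Log2 differences by limma with 95% intervals for each gene (points and bars) in the 11 male and 5 female NAc contrasts. The intervals of all 4 genes lie below 0 for defeat after P2-12 ELS, though none was called after adjustment, and Tac1 has the widest intervals in females.

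In female NAc, Tac1 was the marker with the largest differences by rearing. Unstressed Std libraries held 7555, 4810, 9303, 9926, 8860 and 8651 normalised reads of this tachykinin precursor (median 8756), and ELS libraries 4696 to 8954 (median 6072). Under STVS, Std libraries held 7602, 8425, 9298, 10551 and 8025, and ELS libraries 5050 to 9905 (median 6131). Both pairs of groups overlapped, and 5 of 6 ELS libraries under STVS lay below the Std mean.

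The Tac1 difference for ELS history under STVS was -0.44 ± 0.19 (log2; limma adjusted p = 0.353). It was 1 of 6 markers with an unadjusted p under 0.05, beside 13.3% of genes, so this count is near the background. Without the libraries that stood apart by Xist or Ttr it was -0.36 (adjusted p = 0.488), and without the 10 libraries whose adult label repeats the sex it was -0.73 (adjusted p = 0.457). With the shared MSN level as a covariate it was -0.26 (adjusted p = 0.289). ELS alone gave -0.33 ± 0.19 (adjusted p = 0.523), 0 of 6 markers beside 11.2%.

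Cortical glutamate neuron genes varied widely among these punches, and none was called in a contrast. Their summed level had a median of 3721 normalised reads in Std (169.6 to 13141) and 9106 in Std with STVS (355.5 to 15318), against 407.5 in ELS (209.9 to 2172) and 311.6 in ELS with STVS (219.3 to 6000), so the ranges overlapped. Their part in the Tac1 result was not tested. For ELS alone, where Tac1 gave -0.33 and was not called, Drd1 gave -0.14 and Drd2 -0.13. These dopamine receptor genes of the MSN classes were picked after their values were seen. Whether they differed from Tac1 was not tested. Their values for ELS history under STVS are not given here.

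The other female NAc markers stayed close to each other across groups. Penk had group means of 37001 ± 3409 (SD, n = 6) in Std, 36510 ± 3040 (n = 5) in Std with STVS, 37566 ± 3607 (n = 5) in ELS and 36814 ± 5374 (n = 6) in ELS with STVS. Its log2 differences were -0.04 to 0.02, and the widest 95% interval ran from -0.28 to 0.25. Pdyn, the dynorphin precursor, was 10128 ± 885 in Std, 10431 ± 549 in Std with STVS, 9929 ± 1773 in ELS and 9722 ± 1494 in ELS with STVS. Adora2a and Gpr6 were lowest under ELS with STVS (7492 ± 1354 and 2565 ± 488), where ELS history gave -0.20 (adjusted p = 0.505) and -0.26 (adjusted p = 0.431) by limma. Without the 2 libraries that stood apart these were -0.22 (adjusted p = 0.537) and -0.25 (adjusted p = 0.522). Chrm4 differed by -0.13 to 0.05. STVS after standard rearing, STVS after ELS and the interaction of rearing and STVS each had 0 of 6 markers at an unadjusted p under 0.05, beside 6.16%, 2.2% and 7.94% of genes. The direct-minus-indirect difference was -0.91 in Std, -0.89 in Std with STVS, -1.0 in ELS and -0.95 in ELS with STVS, given as a description.

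No other circuit list had a called gene in a NAc stress contrast, over the 16 contrasts, by limma. The smallest p among the peptide receptor genes under ELS history with STVS in females was that of Tacr1, the substance P receptor gene (0.21 ± 0.06, limma adjusted p = 0.29), opposite in sign to Tac1. In the male P2-12 defeat contrast, Tacr3 gave -0.22 ± 0.11 (adjusted p = 0.671) and, among processing genes, Pcsk1n gave -0.23 ± 0.10 (adjusted p = 0.62). Rarb, a retinoic acid receptor gene on the shared MSN list, gave -0.32 ± 0.10 (adjusted p = 0.525).

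Across NAc libraries the markers of both pathways varied together. As deviations from the group mean of log2 values, 21 of 21 pairs correlated positively, 6 in male and 15 in female NAc (Pearson r 0.61 to 0.94, permutation p adjusted over 21 pairs at most 0.00089). Spearman rho ran from 0.53 to 0.88 (adjusted p at most 0.0127), and without the 2 libraries farthest from the median r was 0.46 to 0.90. Over the 20 female libraries left without those that stood apart, r was 0.66 to 0.94. The highest was Adora2a with Gpr6 in females (r = 0.94, rho = 0.88, r = 0.90 without the 2 farthest). Pairs across the pathways overlapped in range with pairs within them but had lower medians. The median r for 1 of each was 0.77 in females, against 0.86 (both direct) and 0.79 (both indirect). In males it was 0.72, against 0.82 (both indirect). In females r was 0.83 to 0.86 for both direct, 0.76 to 0.94 for both indirect and 0.66 to 0.86 for 1 of each, and in males 0.73 to 0.83 for both indirect and 0.61 to 0.88 for 1 of each. The libraries share a table, a scaling factor and the punch they came from.

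The shared MSN list was then taken out of these correlations. After removal of the line on that list, r was 0.42 to 0.67 for male indirect pairs and -0.20 to 0.16 for male pairs of 1 of each. In females it was 0.41 to 0.45 for direct pairs, 0.21, 0.22 and 0.73 for indirect pairs, and -0.34 to 0.31 for pairs of 1 of each. These values are given without a test. In males every indirect pair lay above every pair of 1 of each. Each such male pair of 1 of each holds Chrm4, which itself followed the list closely (r = 0.95). The male values therefore cannot separate the pathways from this 1 gene. In females Penk with Adora2a (0.22) and Penk with Gpr6 (0.21) lay below Penk with Pdyn (0.31).

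**Figure D4:**
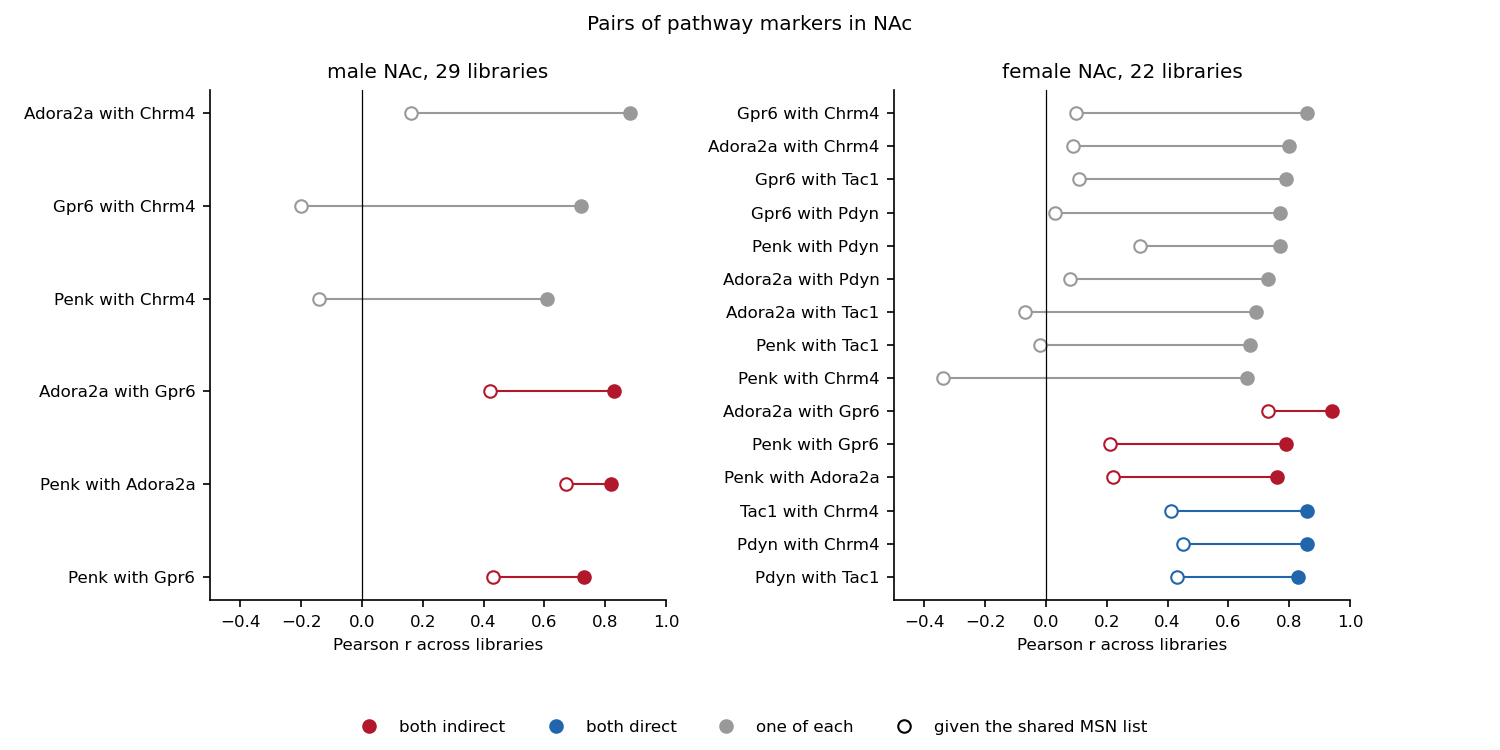
Pearson r across NAc libraries for each pair of genes, as deviations from the group mean (filled) and after removal of the line on the shared MSN list (open), 29 male and 22 female libraries. Cross-pathway pairs (grey) drop to between -0.34 and 0.31. Direct pairs (blue), at 0.83 to 0.86 before, drop to between 0.41 and 0.45. Among indirect pairs (red), female Penk with Adora2a (0.22) and with Gpr6 (0.21) drop into the cross-pathway range, and the others to between 0.42 and 0.73.

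Each marker followed the shared MSN list itself in NAc, among 34 relations of gene and list computed over 6 region and sex sets. In NAc r was 0.68 (Penk, male) to 0.95 (Chrm4, male), with rho 0.65 to 0.93, permutation p adjusted over the 34 at most 0.00056, and r of 0.61 to 0.92 without the 2 farthest libraries. Without the female libraries that stood apart, r in female NAc was 0.80 to 0.93. The genes most like each marker across 51 NAc libraries (mean of male and female r over 7958 genes) were Arpp21 (0.86), Snx25 and Itgb1bp1 (0.84 each) for Penk. For Adora2a they were Ppp1r1b (0.96), Fbxl16 and Rasgef1a (0.91 each), and for Gpr6 they were Adora2a (0.88), Agfg2 and Serpina9 (0.87 each). For Chrm4 they were Rasd2 (0.92), Inf2 and Accn4 (0.91 each). Over the 22 female libraries and 13999 genes, Pdyn was most like Rab40b (0.92), Kcnk2 and Chst15 (0.90 each), and Tac1 most like Trhr, Rxrg and Clip4 (0.95 each).

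In male PFC, 2 libraries set most of the spread of the indirect-pathway markers. Penk in the Std libraries 1 to 6 was 1269, 787.4, 816.8, 3016, 673.6 and 801.8 normalised reads, and 618.8 to 885.5 in ELS libraries (median 685.7). Adora2a was 165.0, 95.11, 122.5, 682.0, 121.4 and 83.55 in Std and 63.42 to 105.3 in ELS (84.49). Gpr6 was 50.63, 28.75, 45.25, 207.9, 40.82 and 32.89 in Std and 13.14 to 30.23 in ELS (28.17). Std replicate 4 was highest for each, and replicate 5 of ELS with defeat stood apart in its own group (Penk 2509, Adora2a 515.7, Gpr6 131.0, Tac1 1483). These 2 libraries also had the highest shared MSN mean, 11.52 and 11.36 against 10.64 to 10.88 in the other 22.

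ELS alone gave -1.06 ± 0.41 for Gpr6 in male PFC (log2; limma adjusted p = 1.0), 1 of 6 markers at an unadjusted p under 0.05, beside 2.22% of genes. Adora2a gave -0.86 ± 0.43, and -0.44 without Std replicate 4. Penk gave -0.56 ± 0.31, and -0.26 without that library. Without the libraries that stood apart by high Xist, Std replicate 4 among them, Adora2a gave -0.30 and Penk -0.11. Gpr6 fell below the 14000 genes tested in both reduced sets. With no filter it gave -0.66 without Std replicate 4 and -0.57 without the libraries that stood apart (adjusted p = 1.0 for each), and its unadjusted p was no longer under 0.05 in either. The interaction of ELS and defeat was 0.99 ± 0.43 for Penk, 1.31 ± 0.61 for Adora2a and 1.32 ± 0.58 for Gpr6 (limma adjusted p = 0.824 for each), 3 of 6 at an unadjusted p under 0.05, beside 5.94%. Both libraries enter it. Without those that stood apart, which include Std replicate 4 but not replicate 5 of ELS with defeat, Penk gave 0.60 (adjusted p = 0.783), Adora2a 0.73 (adjusted p = 0.799) and, with no filter, Gpr6 0.81 (adjusted p = 0.896), and 0 of these 3 kept an unadjusted p under 0.05. The other male PFC contrasts had 0 of 6 markers at that level, beside 3.35% of genes for defeat after standard rearing, 16.7% for defeat after ELS and 8.44% for ELS history among defeated males. In male PFC the markers followed the MSN list with r of 0.61 (Chrm4) to 0.98 (Adora2a), rho of 0.50 to 0.91 and adjusted permutation p of at most 0.0234. Without the 2 farthest libraries r was 0.88 for Adora2a and 0.41 to 0.63 for the others, and without those that stood apart it was 0.58 to 0.96. In female PFC, Gpr6 alone of the 6 had an adjusted p under 0.05 (r = 0.60, adjusted p = 0.00537, rho = 0.53, adjusted p = 0.0217, r = 0.38 without the 2 farthest and 0.61 without the library that stood apart).

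**Figure D5:**
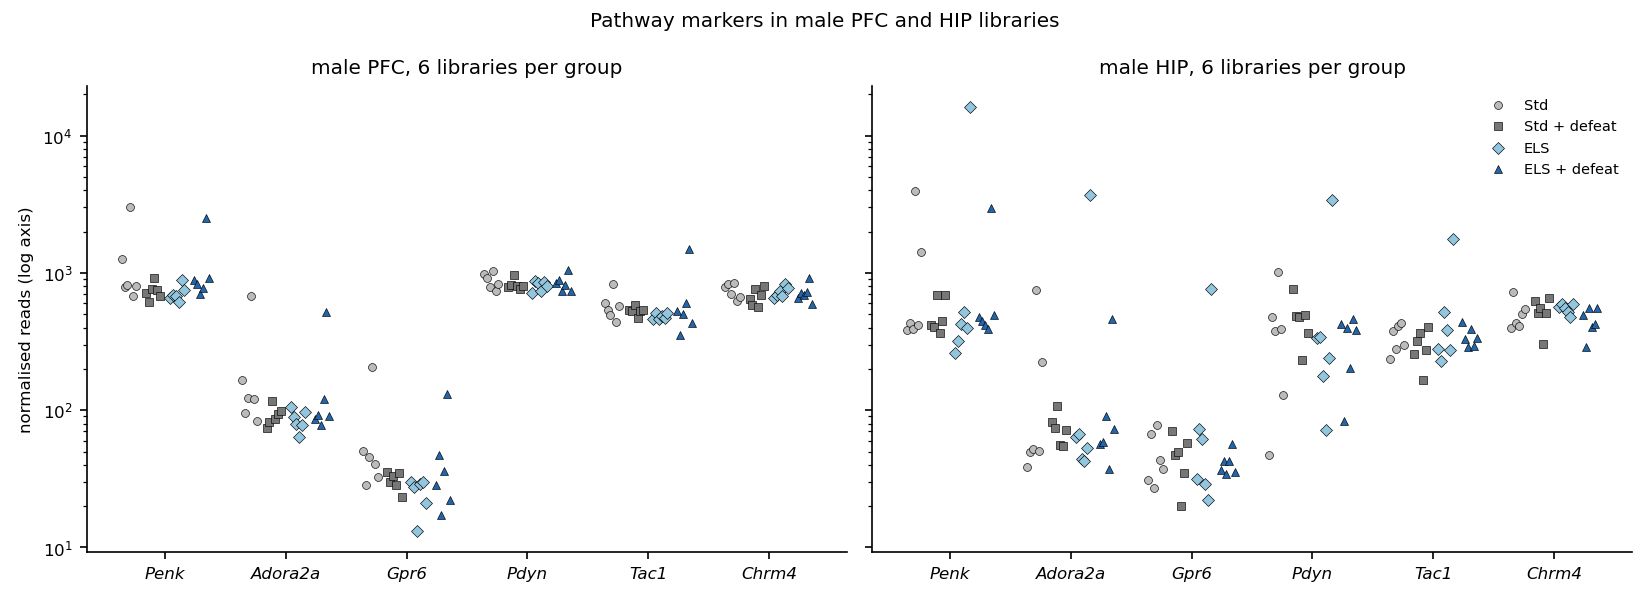
Normalised reads (log axis) of the 6 genes in male PFC and HIP, 1 point per library by group. In PFC, Std replicate 4 and ELS with defeat replicate 5 stand above the rest for Penk (3016 and 2509), and in HIP the ELS replicate 6 reaches 16096.

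In female PFC the direct-pathway peptide gene Pdyn had the lowest unadjusted p of all 189 pairs. It was 687.3 to 848.7 normalised reads in Std (median 766.1) and 845.7, 954.1, 865.1, 885.5 and 1029 in Std with STVS. The groups overlapped by 1 library on each side. The difference was 0.27 ± 0.08 (log2; limma adjusted p = 0.861). Penk gave 0.41 ± 0.17 (adjusted p = 0.861), making 2 of 5 markers tested at an unadjusted p under 0.05, beside 5.04% of genes. Among STVS females, ELS history gave -0.24 ± 0.08 for Pdyn (adjusted p = 0.41), 1 of 5 beside 10.6%. This contrast shares the Std with STVS libraries with the one before it. The interaction gave -0.55 ± 0.24 for Penk (adjusted p = 0.592) and -0.26 ± 0.12 for Pdyn (adjusted p = 0.597), 2 of 5 beside 7.91%. ELS alone and STVS after ELS had 0 of 5, beside 3.29% and 3.25%. Replicate 3 of Std with STVS, low in Xist, enters 3 of these contrasts. With it Adora2a gave 0.42 for STVS after standard rearing. Without it that contrast gave 0.29 for Pdyn, 0.39 for Penk and 0.60 for Adora2a (limma adjusted p = 0.943 for each). ELS history gave -0.26 for Pdyn (adjusted p = 0.597), and the interaction -0.53 for Penk and -0.28 for Pdyn (adjusted p = 0.673 and 0.653). Gpr6 was not among the 14000 genes tested there.

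In VTA, Tac1 was the 1 marker of 6 with an unadjusted p under 0.05 in any contrast. In male VTA it was 36.89, 7.701, 46.43 and 40.48 RPKM in Std and 4.788 to 15.67 in Std with defeat (median 9.342). Std replicate 2 fell within the defeated range, and the other 3 lay above it. The difference was -1.48 ± 0.62 on the log2(RPKM + 1) scale (limma adjusted p = 0.691), 1 of 6 markers beside 6.56% of genes. It was -2.05 without Std replicate 2 (adjusted p = 0.454), and -1.24 without Std replicate 3 (adjusted p = 0.937). In female VTA, Tac1 was 100.1 to 517.7 normalised reads in Std (median 211.4) and 321.8, 236.0, 774.9, 439.4 and 560.8 in ELS. ELS alone gave 0.99 ± 0.46 (adjusted p = 0.873), 1 of 6 beside 4.22%, and without the libraries that stood apart 0.92 (adjusted p = 0.966). In the other male VTA contrasts 0 of 6 reached that level, beside 2.03% of genes for ELS alone, 4.57% for defeat after ELS, 5.77% for ELS history among defeated males and 5.46% for the interaction. In female VTA it was 0 of 6 for STVS after standard rearing (4.44%), STVS after ELS (1.34%), ELS history under STVS (4.2%) and the interaction (2.37%).

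Tac1 in male VTA followed the shared MSN list (r = 0.70, adjusted permutation p = 0.00155; rho = 0.68, adjusted p = 0.00302; r = 0.65 without the 2 farthest), as did Pdyn (r = 0.76, adjusted p = 0.00018; rho = 0.78, adjusted p = 0.00034; r = 0.68 without them). Pdyn was 0.8512 to 5.649 RPKM in defeated ELS libraries, with replicates 1 (5.649) and 5 (4.686) highest. In female VTA, Chrm4 (r = 0.54, adjusted p = 0.0143; rho = 0.50, adjusted p = 0.0331; r = 0.49) and Penk (r = 0.53, adjusted p = 0.0179; rho = 0.57, adjusted p = 0.0123; r = 0.70) did so, with r of 0.50 and 0.54 without the libraries that stood apart. Pdyn in female VTA passed by rho alone (rho = 0.47, permutation adjusted p = 0.0463, against r = 0.44, adjusted p = 0.0645). Its r was 0.58 without the 2 farthest libraries and 0.39 without those that stood apart. With the shared MSN level as a covariate the male Tac1 difference was -1.12 (limma adjusted p = 0.856).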

How the data were processed

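RNA of 163 samples was sequenced with an unstranded TruSeq kit, per the labels' protocols, so antisense reads cannot be told apart. Male VTA values are RPKM, as the authors deposited them; the submitters' processing notes name TopHat2, HTSeq, Bowtie2 2.2.0 and SAMtools 0.1.19 with mm9 and mm10. All other values are normalised reads, a signal that the authors deposited after scaling each library's counts by its own factor; the notes name HISAT, HTSeq and mm10, while no tool for this scaling is named in the sources used here. Tests stayed within a table, since tables were normalised separately. Whole reads were recovered for 100.0% of normalised values (tolerance 0.001) and for 98.0% of RPKM values under 1000 reads (tolerance 0.02, GENCODE vM1 lengths), which gave the depths and the reads for edgeR. No chromatin or input sample (16) was analysed here.

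The 6 genes, the other lists and the contrasts were chosen with earlier results of these data known. Groups came from titles and characteristics. Log2(value + 1) was fitted in limma 3.58.1 (R 4.3.3) with trend and robust settings, separately by region and sex, a coefficient for every group, over the 14000 genes of highest mean (male VTA: 14586 with mean RPKM of at least 0.5), calling Benjamini-Hochberg adjusted p under 0.05. The pseudocount understates fold changes of low genes. Correlations used 100000 permutations (scipy 1.17.1), so 1e-05 is the smallest p they can give. Scripts were tested on simulated data. HIP libraries were not tested.

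Named besides the 6 genes were called genes of each list (up to 4 of largest change) or its gene of smallest p, the 3 genes most like each marker, and the check genes Xist, Ddx3y and Ttr. Drd1 and Drd2 in female NAc were named after their values were seen. Pdyn and Tac1 likeness used females alone. Alternatives were no filter, quantile normalisation, a pseudocount of 8 (0.1 RPKM), edgeR 4.0.16, a replicate block, the shared MSN list as covariate, each library left out, and no libraries that stood apart. After the data were seen, correlations without those libraries and unfiltered Gpr6 fits in male PFC were added.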

Additional observations from a re-analysis of the deposited data

Results flagged for a closer look

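Of 168 groups of 4 to 6 libraries examined gene by gene, 22 had 1 library whose gap to its nearest neighbour took more of the group's range than chance allows in 1 of 20 groups. The numbers that follow are that gap as a share of the group's range. No explanation was tested.

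In male HIP, ELS replicate 6 was highest for Penk (0.984), Adora2a (0.993), Gpr6 (0.931), Pdyn (0.918) and Tac1 (0.816). ELS with defeat replicate 5 was highest for Penk (0.961) and Adora2a (0.876), and Std replicate 4 for Penk (0.715) and Adora2a (0.739). In male PFC, ELS with defeat replicate 5 was highest for Penk (0.883), Adora2a (0.901), Gpr6 (0.735) and Tac1 (0.774), and Std replicate 4 for Penk (0.746), Adora2a (0.864) and Gpr6 (0.878). These 5 libraries hold 16 of the 22 gaps.

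The other 6 gaps were scattered. Pdyn was highest in male PFC Std with defeat replicate 3 (0.687), Chrm4 in female VTA Std replicate 3 (0.643) and Penk in female VTA ELS replicate 4 (0.765). Adora2a was lowest in female VTA Std with STVS replicate 5 (0.818), Tac1 in female PFC Std with STVS replicate 3 (0.761) and Chrm4 in male NAc P10-20 ELS replicate 4 (0.861).

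HIP entered no comparison above, and its ELS replicate 6 exceeded every standard-reared undefeated library for 5 genes: Penk at 16096 normalised reads, Adora2a at 3679, Gpr6 at 759, Pdyn at 3401 and Tac1 at 1777.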

How the results depend on the processing

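No alternative changed the call of a marker in a stress contrast: of 1618 values over 189 results, 1481 kept the sign, 137 changed sign uncalled, and 0 were called. In the regional contrasts 143 of 144 values kept sign and side, and Adora2a in PFC against VTA passed with quantile normalisation (0.30). The count of genes called in a stress contrast moved from 0 to 1 in 5 of 266 counts from alternatives other than leaving out 1 library: with the shared MSN list as covariate, P2-12 history among defeated male NAc (1), and ELS history under STVS (1) and the interaction (1) in female PFC; with no filter, P2-12 ELS by defeat in male NAc (1) and STVS after ELS in female VTA (1). Leaving out 1 library in turn, counts ran from 0 to 71 for the ELS windows in undefeated male NAc, 0 to 1 for P10-20 history among defeated and for P2-12 ELS by defeat, 0 to 3 for ELS history under STVS in female NAc, and in male PFC 0 to 35 for defeat after ELS and 0 to 1 for ELS history under defeat. Regional counts ran from 9543 to 9991, 11097 to 11472 and 10772 to 11070, with 6, 6 and 5 markers called throughout. With the replicate block, 0 genes were called in each stress contrast run, and 9854, 11319 and 10987 in the regional ones. Same-number libraries of a region belong to different groups, so to different mice or pools. Their deviations did not all correlate over 0.1 in any set: 14 of 31 pairs did in female NAc, 19 of 31 in female PFC, 18 of 31 in female VTA, 14 of 36 in male PFC and 8 of 26 in male VTA, with 8, 12, 5, 6 and 2 libraries best with their own number. Across female regions 2 of 18 pairs did. Replicate 3 of Std with STVS was low in Xist in all 3 regions, and the labels do not say whether a number marks 1 mouse across regions. With the block the regional calls of the markers were the same. Male NAc titles allowed no block. Given the shared MSN list, r changed sign for male Penk with Chrm4 (-0.14) and Gpr6 with Chrm4 (-0.20), and for female Penk with Tac1 (-0.02), Penk with Chrm4 (-0.34) and Adora2a with Tac1 (-0.07). The cause of these shifts was not tested.

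Limits: groups of 4 to 6 libraries gave NAc intervals of about 0.23 (male) and 0.28 (female) to each side at the median, before adjustment, and differences of -0.41 and -0.44 were not called. Pooled male samples hide mouse-to-mouse spread. In PFC and VTA, Gpr6 and Adora2a rested on few reads.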

Other observations

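In male HIP the markers were low in most libraries and high in a few. Penk had a median of 428.4 normalised reads over 24 libraries, and reached 16096 in ELS replicate 6, 3971 in Std replicate 4, 2949 in ELS with defeat replicate 5 and 1408 in Std replicate 6. Adora2a had a median of 61.39, and was 3679, 747.3, 461.2 and 223.8 in those libraries. Chrm4 was 598.1 in ELS replicate 6, the highest of its group but close to the next at 593.4.

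The shared MSN list summed to 105159 normalised reads in ELS replicate 6, against a median of 32715. The other 3 libraries had summed choroid plexus genes of 274719 (Std replicate 4), 134186 and 233200, and granule neuron genes of 1097 to 1474. Std replicate 1 and ELS with defeat replicate 2 had a like profile (choroid plexus 186777 and 178580, granule neuron 1209 and 2077) with Penk at 384.3 and 444.5, near the median. ELS replicate 6 had 1401 and 10261. The part of these in the marker levels was not tested.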
